A study of Mus musculus with 4 samples.

Results

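The common gamma chain cytokine receptors are the surface proteins through which lymphocytes receive IL-2, IL-4, IL-7, IL-9, IL-15 and IL-21. Here they comprise 8 genes, taken by symbol from the 22554 genes of the deposited table. They are Il2ra, Il2rb, Il2rg, Il7r, Il4ra, Il9r, Il21r and Il13ra1, the last of which pairs with the IL-4 receptor alpha chain for IL-13. RNA was sequenced from ILC2s (group 2 innate lymphoid cells) sorted from the lungs of BALB/c mice aged 6 weeks, in 2 libraries of cells given vehicle and 2 libraries of cells given compound 5D. Compound 5D blocks the Orai calcium channels, and the question asked of the libraries was how that block changes ILC2 RNA. Cells of both groups were cultured with IL-2, IL-7 and IL-33, overnight by the labels. The study's text gives another culture time and is not uniform on when IL-33 was added. Its culture methods also name IL-2 and IL-7, so ligands of the IL-2 and IL-7 receptors were present throughout. The sort gate of the study uses CD127, the protein of Il7r, and ST2, so detection of Il7r is a condition of the sample and not a result.

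Apart from the IL-13 receptor, each receptor of the family is built from the shared gamma chain, encoded by Il2rg, and at least 1 private chain. The private chain recognises the cytokine. The IL-2 receptor adds an alpha chain (Il2ra, CD25), which raises affinity for IL-2 but does not signal, and a beta chain (Il2rb) that is shared with the IL-15 receptor. Binding of a cytokine activates JAK1 at the private chain and JAK3 at the gamma chain. STAT5 is then phosphorylated after IL-2, IL-7, IL-9 and IL-15, STAT6 after IL-4, and STAT3 mainly after IL-21. In ILC2s, IL-7 and IL-2 support survival, IL-9 acts back on the cells that make it, and IL-4 can raise cytokine production. Il2ra is also known as a gene that STAT5, NF-kB and NFAT can induce.

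The alpha and gamma chains of the IL-2 receptor had the highest RNA levels of the family, and their promoters are shown for 2 reasons. The first gene had the smallest p of the family, and the second is the chain shared by all its receptors but the IL-13 receptor. The sequences are the 250 bases before the RefSeq start (build GRCm38.p6, written 5′ to 3′ on the strand of the gene), which for Il2ra is chr2:11642542-11642791 on the plus strand and for Il2rg is chrX:101268256-101268505 on the minus strand. Capitals mark GGAAA, the core of NFAT sites, on either strand, and any match to the NF-kB consensus.
Il2ra: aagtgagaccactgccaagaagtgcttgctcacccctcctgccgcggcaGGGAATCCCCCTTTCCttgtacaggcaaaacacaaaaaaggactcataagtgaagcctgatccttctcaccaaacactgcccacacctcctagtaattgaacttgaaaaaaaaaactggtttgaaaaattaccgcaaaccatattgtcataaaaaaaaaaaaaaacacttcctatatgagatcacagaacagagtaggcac
Il2rg: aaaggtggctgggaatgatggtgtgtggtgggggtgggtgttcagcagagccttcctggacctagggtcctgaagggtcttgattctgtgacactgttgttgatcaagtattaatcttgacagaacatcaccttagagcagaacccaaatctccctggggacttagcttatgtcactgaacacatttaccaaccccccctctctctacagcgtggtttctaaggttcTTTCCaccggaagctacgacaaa
The Il2ra window held 1 GGAAA core, which 55.6% of 32851 such RefSeq windows have. It also held 2 overlapping matches to the NF-kB consensus, neither sharing a base with the core. The second match ended directly beside the core. An NF-kB match was found in 3.9% of the windows. The Il2rg window held 1 GGAAA core and 0 NF-kB matches. The STAT site TTCNNNGAA, present in 7.02% of windows, was found in neither but once in the window of Il7r. Of the 8 genes, 7 had an entry, Il2rb being the one without.

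The libraries held 20096555 to 28697265 counts, with both 5D libraries deeper than both vehicle libraries. Replicates stood further apart than counting error gives (chi-square per degree of freedom 6.43 with vehicle and 7.06 with 5D over 12503 and 12932 genes), and all 4 were kept as separate samples. The labels do not say that libraries came from separate animals or cultures, so p-values measure only the spread between libraries. All 12 defining ILC2 genes were present, with vehicle means from 12.2 normalized CPM for Thy1 to 4731 for Il5, and Gata3 at 1095. The sort gate selects on the proteins of Il1rl1 (ST2) and Ptprc (CD45), so the presence of these genes is a condition of the sample. It also excludes cells bearing the proteins of Cd3e, Ncr1, Itgax, Itgam and Fcer1a, among others. Low levels of these markers of other cells are likewise a condition of the sample and not a result. Normalized CPM is a gene's count divided by the size of its library after upper-quartile scaling. At an unadjusted p under 0.05, 3 of the ILC2 genes were lower (Klrg1, Thy1 and Il5) and 1 higher (Il1rl1). These are 25% and 8.33%, against 3.84% and 3.5% of all genes, and 0 passed after adjustment by edgeR. Summed markers of NK cells and ILC1 lay between 0 and 0.560 normalized CPM, with Ncr1, Eomes and Tbx21 measured, and those of macrophages, dendritic cells and neutrophils (7 of 7 genes) between 3.36 and 7.60 in both groups. T cell markers (5 of 6 genes measured) summed to at most 27.6 in a library, mostly Cd3g, with Cd4 at 0 in all 4. B cell markers (2 of 4) summed to 13.6 to 19.4, almost wholly Cd79b, those of mast cells, basophils and eosinophils (3 of 6) to 2.25 to 5.55, and those of epithelium, endothelium and fibroblasts (4 of 5) to 43.5 to 49.9, almost wholly Epcam and Pecam1. Pecam1, an endothelial and leukocyte gene, was the one marker of other cells with an unadjusted p under 0.05, at 23.7 and 21.3 normalized CPM in vehicle libraries and 19.9 and 15.7 in 5D libraries. Depth was examined only by thinning the libraries to one total, and those values are given with the genes below. The part of other cells in the results was not tested. In bulk RNA fewer cells of a type and less RNA per cell cannot be told apart.

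Across the 8 genes, 3 receptor chains had lower mean RNA in 5D-treated ILC2s, without passing the test over all genes, 3 had nearly equal means, and 2 were close to absent in both groups. Il2ra, Il2rb and Il4ra stood at 85.0%, 89.8% and 88.9% of their vehicle levels. The shared chain Il2rg and the private chains Il7r and Il9r stood at 100.2%, 100.6% and 100.3%. Il21r and Il13ra1 had at most 40 and 8 counts in a library. After a filter on low counts 7 of the 8 genes were tested, all but Il13ra1, among 17650 genes. At an adjusted p under 0.05 by edgeR's quasi-likelihood test, 0 members were lower and 0 higher, where 0.068% and 0.0283% of all genes were so called, 0.0963% in either direction. DESeq2 and limma-voom each called 1 member, Il2ra. At an unadjusted p under 0.05, 3 of the 7 were lower and 0 higher, where 3.84% and 3.5% of all genes were, 7.34% in either direction. The median log2 fold change of the 7 was 0.0023 against -0.0016 over all genes tested. Several of the members were shown by the study from these same libraries, so the list is not independent evidence of a direction.

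**Figure D1:**
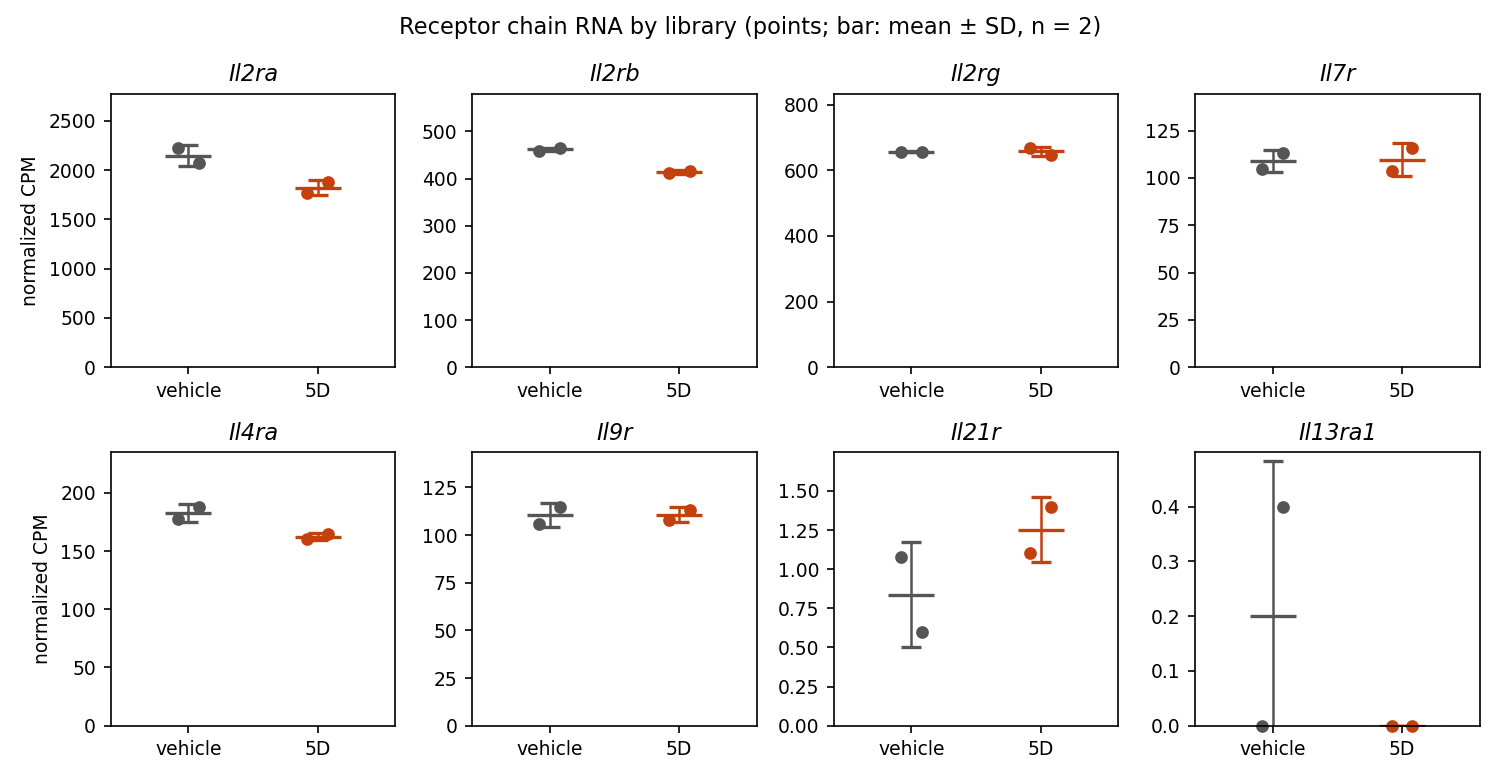
Normalized CPM of each receptor chain gene (linear axis from 0) in the 2 vehicle and the 2 5D libraries, each point a library and each bar the group mean with its SD. Both 5D points of Il2ra, Il2rb and Il4ra lie under both vehicle points, whereas those of Il2rg, Il7r and Il9r interleave with them.

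Il2ra (ENSMUSG00000026770.5, chromosome 2 from 11642807 to 11693193 on mm10, plus strand) encodes the alpha chain that makes the IL-2 receptor sensitive to low IL-2. It was read at 2221 and 2068 normalized CPM under vehicle and at 1771 and 1874 under 5D. The groups did not overlap, and the gap between the nearest libraries of the groups was wider than the gap within either group. The mean was 2144 ± 108 in vehicle and 1822 ± 73.1 in 5D libraries (SD, n = 2 each). On the log2 scale the fold change was -0.23 (SE, standard error, 0.041, 95% interval -0.33 to -0.14), with an unadjusted p of 0.000129 that ranked 25th of 17650 genes and an adjusted p of 0.0878 from edgeR. Under 8 other settings of scaling, filter, test, pairing and depth the adjusted p ran from 6.69e-05 with DESeq2 to 0.175 with libraries thinned to one depth, and it was under 0.05 in 4 of them. It was under 0.05 in 3 of the 4 fits that left out a library, but 0.181 without 5D replicate 1. The estimate itself lay between -0.29 and -0.19 in all 12, so the sign held while the call did not. A stretch of its transcripts is near-identical to a part of 6 other genes, of which the most abundant, Echs1, had at most 1641 counts against at least 41384 for Il2ra.

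Il2rb (ENSMUSG00000068227.9, chromosome 15 from 78479256 to 78495271, minus strand) encodes the signaling beta chain for IL-2 and IL-15. Its libraries lay close together within a group, at 459 and 464 normalized CPM in vehicle libraries and 412 and 417 under 5D. The groups did not overlap, and the distance between them was several times that within either group. The log2 fold change was -0.16 (SE 0.042, 95% interval -0.25 to -0.063, edgeR adjusted p 0.443). The unadjusted p was 0.00350, and it stayed under 0.05 in all 12 alternatives, while the adjusted p was never below 0.0915.

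Il4ra (ENSMUSG00000030748.9, chromosome 7 from 125552120 to 125579474, plus strand) encodes the chain that binds IL-4 and serves both the gamma chain receptor and the IL-13 receptor. It had 177 and 188 normalized CPM in vehicle libraries and 160 and 165 under 5D. Both 5D libraries were below both vehicle libraries. The log2 fold change was -0.17 (SE 0.057, 95% interval -0.30 to -0.045, edgeR adjusted p 0.552). Its unadjusted p of 0.0121 was under 0.05 in 10 of the 12 alternatives, and it was 0.0927 without vehicle replicate 2 and 0.0548 without 5D replicate 1. The antisense gene Gm44876 overlaps an exon of Il4ra but had at most 3.30 counts in a library.

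Il2rg (ENSMUSG00000031304.18, chromosome X from 101264378 to 101268255, minus strand), the gamma chain itself, had nearly equal group means. It read 657 and 655 normalized CPM in vehicle libraries and 667 and 647 under 5D, so the vehicle libraries lay between the 5D libraries. The log2 fold change was 0.0023 (SE 0.040, edgeR adjusted p 0.997), and its 95% interval of -0.085 to 0.090 corresponds to changes from -5.72% to 6.42%. Gm20489, an overlapping gene, held at most 8.29 counts.

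Il7r (ENSMUSG00000003882.5, chromosome 15 from 9505788 to 9530176, minus strand) encodes the private chain for IL-7, which TSLP also uses. Its 4 libraries interleaved, at 105 and 113 normalized CPM in vehicle libraries and 103 and 116 under 5D. The log2 fold change was 0.0093 (SE 0.074, 95% interval -0.15 to 0.17, edgeR adjusted p 0.997).

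Il9r (ENSMUSG00000020279.10, chromosome 11 from 32187541 to 32200279, minus strand) encodes the private chain for IL-9. It stood at 106 and 115 normalized CPM in vehicle libraries and 108 and 113 under 5D. The 5D libraries lay inside the vehicle range, with a log2 fold change of 0.0037 (SE 0.068, 95% interval -0.14 to 0.15, edgeR adjusted p 0.997). The intervals of Il7r and Il9r correspond to changes from -10.1% to 12.7% and from -9.55% to 11.1%. They end just short of the estimate for Il2rb and overlap its interval, and whether these genes differed from Il2rb in their response was not tested.

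Il21r (ENSMUSG00000030745.9, chromosome 7 from 125603429 to 125633570, plus strand), the private chain for IL-21, had 25 and 12 counts with vehicle and 30 and 40 with 5D. As normalized CPM this is 1.08 and 0.600 against 1.11 and 1.40, with both 5D libraries just above both vehicle libraries. The log2 fold change of 0.57 had a standard error of 0.50 and an adjusted p of 0.872 from edgeR, and a change was not detectable at this depth. Il13ra1 (ENSMUSG00000017057.9, chromosome X from 36112110 to 36171259, plus strand), which completes the IL-13 receptor, had 8 counts in vehicle replicate 2 and 0 in the other libraries. A count of 0 allows up to 3 counts, or 0.105 to 0.129 CPM in those libraries, and this limit covers counting error only. Il2ra, Il2rb and Il4ra are the 3 tested members whose groups were apart on the lower side and Il21r the 1 apart on the higher side, where 18.8% and 18.7% of all genes tested were so placed, 37.6% in either direction.

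**Figure D2:**
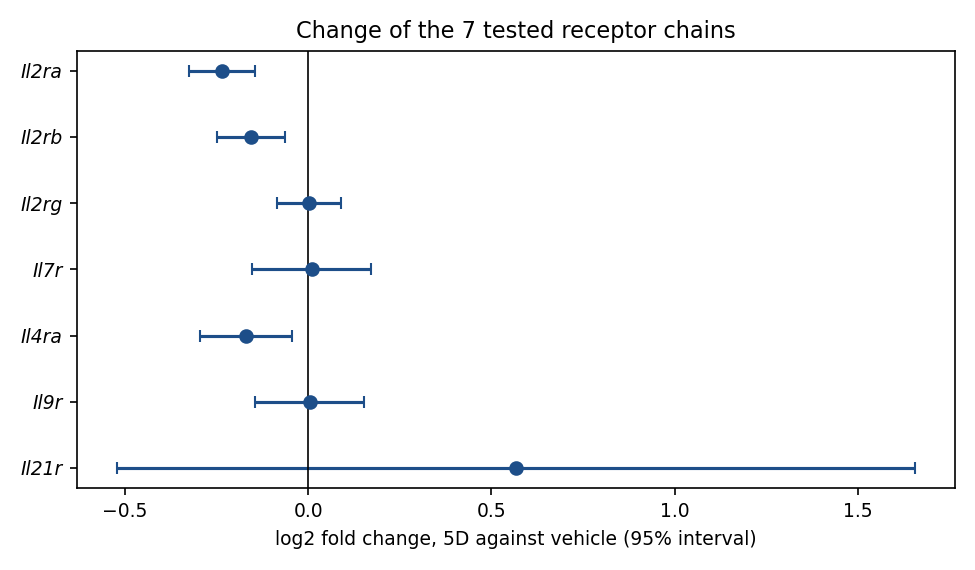
Log2 fold change of 5D against vehicle for the 7 tested receptor chain genes, as points with their 95% intervals from edgeR. The intervals of Il2ra, Il2rb and Il4ra lie under 0, those of Il2rg, Il7r and Il9r straddle it, and that of Il21r runs from -0.52 to 1.66.

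Levels can be set side by side only per length, and per kilobase of exon the order with vehicle was Il2ra, Il2rg, Il2rb, Il4ra, Il7r, Il9r, Il21r and Il13ra1. Il2ra stood at 375 ± 18.9 normalized CPM per kilobase and Il2rg at 275 ± 0.438 (SD, n = 2 each). Il2rb followed at 108 ± 0.870, so that the 3 IL-2 receptor chains were each above every private chain for another cytokine. Il4ra stood at 30.5 ± 1.27, and Il7r at 23.4 ± 1.27 and Il9r at 22.3 ± 1.26 did not differ beyond their spread. Il21r was at 0.252 ± 0.101 and Il13ra1 at 0.0538 ± 0.0761. With 5D the order was the same, and Il2ra at 319 ± 12.8 per kilobase came nearer to Il2rg at 275 ± 5.80. Per kilobase of coding sequence Il4ra ranked behind Il7r and Il9r (75.2 ± 3.13 with vehicle, against 79.1 ± 4.30 and 77.7 ± 4.39), where the libraries of the 3 genes overlapped. Under 5D, the libraries of Il4ra at 66.0 and 67.7 lay below those of Il7r at 75.1 and 84.0 and of Il9r at 75.9 and 79.7, so the order of these genes depended on the length used. The other ranks held.

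**Figure D3:**
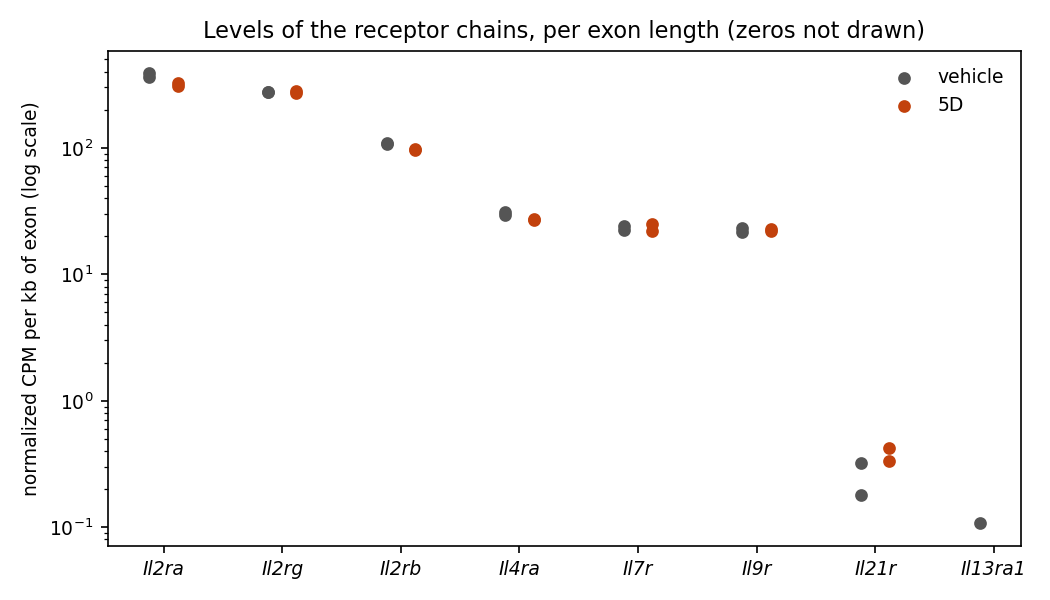
Normalized CPM per kilobase of exon (log axis) for each receptor chain gene, with the vehicle libraries in grey and the 5D libraries in orange and counts of 0 not drawn. The 3 chains of the IL-2 receptor form the upper part, from 96.0 to 389, and Il21r and Il13ra1 lie under 0.5.

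A ratio of 2 chains inside one library does not depend on how libraries are scaled, and it was used to see whether the chains kept their proportions. The ratio of Il2ra to Il2rg in normalized CPM was 3.38 and 3.16 with vehicle and 2.65 and 2.89 with 5D. The groups did not overlap, and the mean log2 ratio was 1.71 ± 0.070 in vehicle and 1.47 ± 0.088 in 5D libraries (SD, n = 2 each). Per kilobase of exon the same ratio was 1.41 and 1.32 against 1.11 and 1.21.
The ratio of Il2rb to Il2rg was 0.699 and 0.708 with vehicle and 0.617 and 0.644 with 5D. That of Il4ra to Il2rg was 0.270 and 0.287 against 0.240 and 0.254. Both were therefore lower in each 5D library than in each vehicle library.
The ratio of Il2ra to Il2rb overlapped between the groups, at 4.84 and 4.45 with vehicle and 4.30 and 4.49 with 5D. So did Il7r to Il2rg, at 0.159 and 0.173 against 0.155 and 0.179, and Il9r to Il2rg, at 0.161 and 0.175 against 0.162 and 0.175. Il2rg itself had a log2 fold change of 0.0023, so ratios to it largely repeat the changes of the other chains given above. They are no separate evidence. The ratios are given as values and were not tested, and with 2 libraries per group an exact two-sided permutation test cannot give a p below 0.333.

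**Figure D4:**
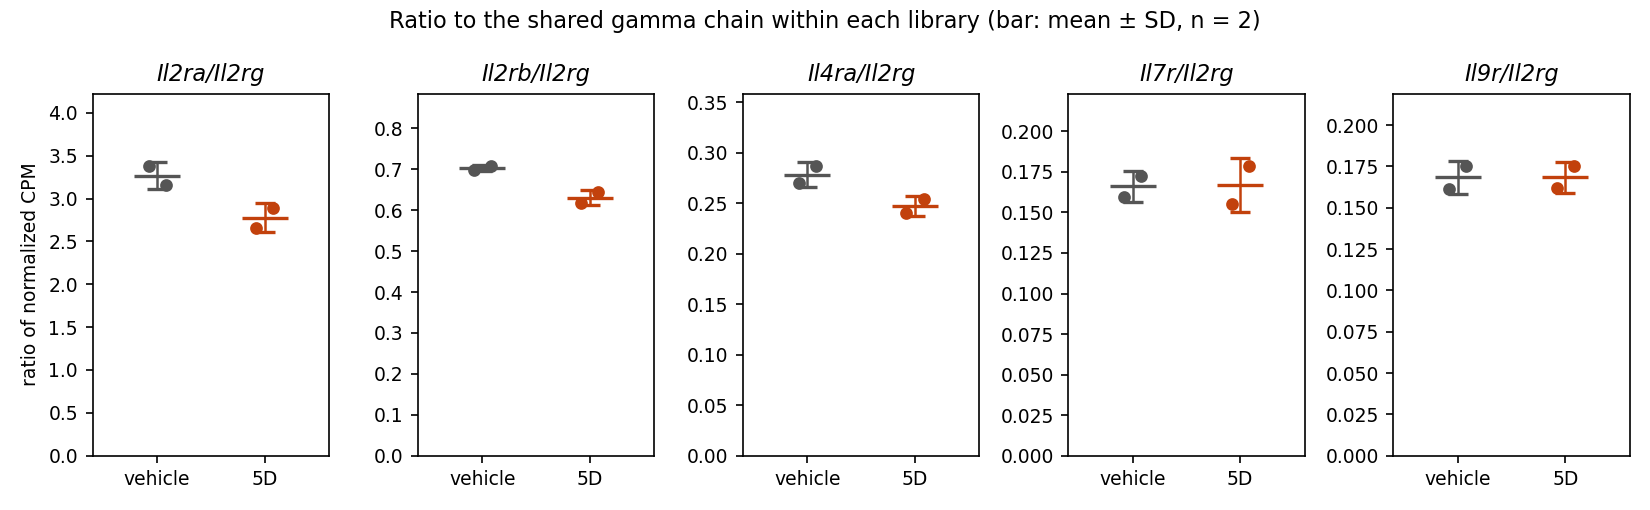
Ratio of 5 receptor chains to the shared gamma chain Il2rg in normalized CPM (linear axis from 0), each point a library and each bar the group mean with its SD. The ratios of Il2ra, Il2rb and Il4ra are lower in both 5D libraries, and those of Il7r and Il9r overlap between the groups.

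Of 3 further chains of these receptors, Il15ra and Crlf2 were tested and Il13ra2 was not analysed here. Il15ra, the alpha chain for IL-15, lies 12096 bases beyond Il2ra on chromosome 2 and had 307 and 211 counts with vehicle and 348 and 290 with 5D. Its log2 fold change was -0.053 (SE 0.18, 95% interval -0.45 to 0.35, edgeR adjusted p 0.982). Crlf2, which joins Il7r in the TSLP receptor, was at 19.0 ± 1.35 normalized CPM in vehicle libraries and 19.0 ± 0.163 under 5D (SD, n = 2 each). On chromosome 7 Il4ra and Il21r are neighbours 23954 bases apart, at 30.5 and 0.252 normalized CPM per kilobase with vehicle.

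The ligands, the signaling proteins and the genes they induce were followed with 44 listed genes, of which 41 were tested. An unadjusted p under 0.05 was reached by 7 lower and 1 higher gene (17.1% and 2.44%, against the 3.84% and 3.5% of all genes), and an adjusted one by 2 lower and 0 higher. The median log2 fold change was -0.024.
Among the ligands, Il9, the cytokine read by Il9r, was counted 271 and 157 times with vehicle but 89 and 86 times under 5D. It fell by 1.64 on the log2 scale (SE 0.25, edgeR adjusted p 0.0314), and DESeq2 gave no adjusted p for Il9. The adjusted p of Il9 was above 0.05 with thinned libraries and without either 5D replicate, reaching 0.109 without 5D replicate 2. Il4 (474 and 433 counts against 556 and 571 under 5D) and Il13 (4007 and 3578 against 4571 and 4733), which signal through Il4ra, had log2 fold changes of -0.055 and -0.073 and adjusted p of 0.964 and 0.843 from edgeR. Of the cytokines supplied in the culture, the 2 that these receptors bind were hardly transcribed, Il2 with 5.36 to 17.0 counts and Il7 with 0 to 9. Il15 had 1 and 0 counts with vehicle and 4 and 12 with 5D, and Il21 had 8.76 and 1 with vehicle and 0 in both 5D libraries. Both passed an unadjusted p under 0.05, on counts too low for a fold change.

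Of the 11 kinases and adaptors tested, 0 had an unadjusted p under 0.05 in either direction by edgeR. Jak1, the kinase of the private chains, stood at 539 ± 32.1 normalized CPM in vehicle libraries and 557 ± 6.86 under 5D. Jak3, the kinase bound by the gamma chain, had 450 ± 8.76 and 424 ± 6.14 (SD, n = 2 each). Its groups did not overlap, with a log2 fold change of -0.085 (SE 0.043, edgeR adjusted p 0.726), and an exon overlaps Insl3. Jak2 was apart on the higher side, at 116 ± 1.44 and 129 ± 13.6, with a log2 fold change of 0.16 (SE 0.075, edgeR adjusted p 0.711). Of the 11 genes, 2 were apart on the lower and 2 on the higher side, where 18.8% and 18.7% of all genes tested were. Of the 5 STAT genes 0 had an unadjusted p under 0.05 by edgeR. Stat5a, Stat5b and Stat6 had log2 fold changes of 0.051, 0.0056 and 0.026, and Stat3, whose exons overlap those of Stat5a, had -0.10 with an adjusted p of 0.682 from edgeR.

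Of 6 inhibitors of these receptors, 2 were lower at an unadjusted p under 0.05 (33.3%, against 3.84% of all genes). After adjustment 1 of them was still lower. Socs3, induced mainly through STAT3, was at 172 and 185 normalized CPM in vehicle libraries and at 107 and 110 under 5D. It fell by 0.72 on the log2 scale (SE 0.062, edgeR adjusted p 0.00179). Cish, a direct target of STAT5, had 533 ± 5.28 normalized CPM in vehicle libraries and 500 ± 6.15 under 5D (SD, n = 2 each). On the log2 scale the difference was -0.092 (SE 0.041, edgeR unadjusted p 0.0468 and adjusted p 0.671). The unadjusted p of Cish was above 0.05 with TMM (0.0649), with filterByExpr (0.0503) and in all 4 fits that left out a library (0.0628 to 0.162). Socs1 and Socs2 had 0.026 and 0.076.
All 10 genes of a list commonly induced through STAT5 had log2 fold changes below 0, from -0.26 to -0.015 with a median of -0.069. Of all 17650 genes tested, 8887 were below 0 as well, and the sign count of the list was not tested against them. Myc, Mcl1, Ccnd2 and Bcl2 stood at -0.015, -0.024, -0.028 and -0.046, each nearer to 0 than its standard error. The rest of the list lay further from 0 than theirs. At an unadjusted p under 0.05, 3 of the 10 were lower (30%, against 3.84% of all genes), namely Osm, Pim1 and Pim2. After adjustment by edgeR 0 were called. The list was written with earlier results of these data known. Osm, a cytokine gene, had 113 ± 2.66 normalized CPM in vehicle libraries and 93.9 ± 3.87 under 5D. Pim1, a survival kinase, had 384 ± 18.6 and 333 ± 5.41, and its relative Pim2 had 67.3 ± 0.861 and 59.1 ± 4.61 (SD, n = 2 each). Their adjusted p were 0.366, 0.356 and 0.668 from edgeR. That of Pim1 ran from 0.0189 without vehicle replicate 2 to 0.724 without 5D replicate 2 over the 12 alternatives, and was otherwise under 0.05 with DESeq2 alone (0.0303). The unadjusted p of Pim2 was above 0.05 with TMM (0.0566), with DESeq2 (0.0677), without vehicle replicate 1 (0.0622), without vehicle replicate 2 (0.104) and without 5D replicate 2, where it was 0.294 and the log2 fold change -0.11. The survival gene Bcl2, with 81.3 ± 4.49 and 78.7 ± 4.35, and Myc, with 101 ± 5.69 and 100 ± 3.77, overlapped between the groups.

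**Figure D5:**
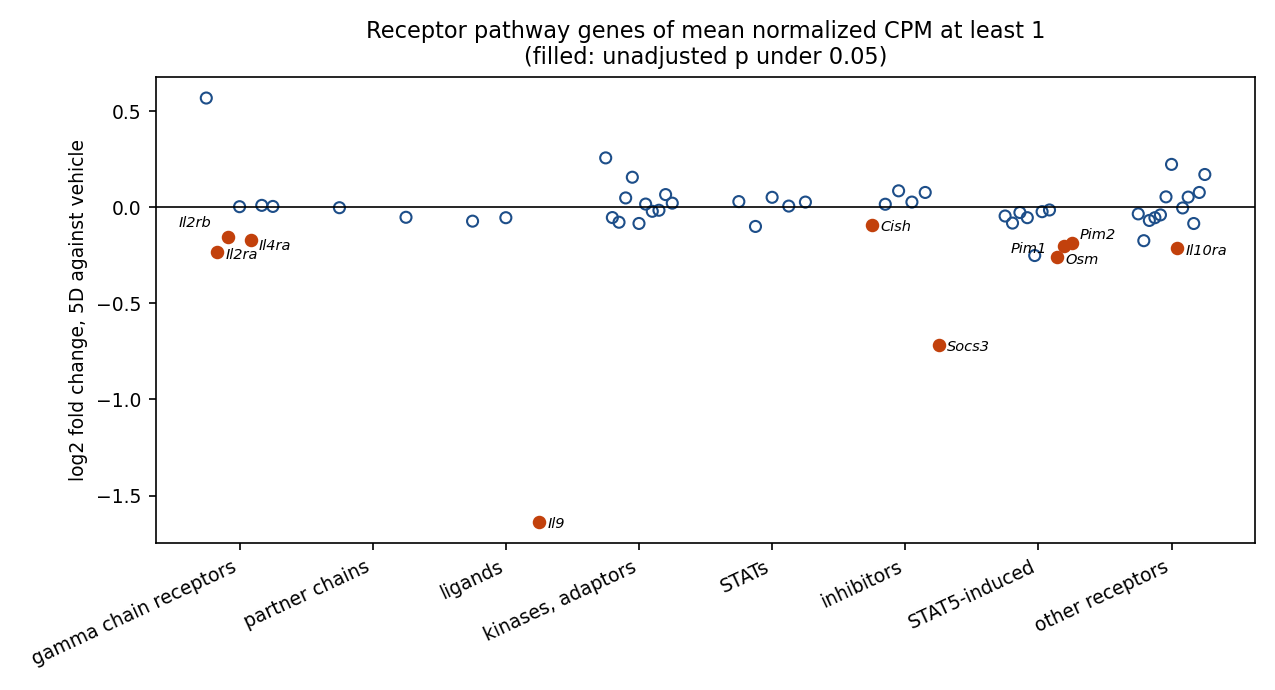
Log2 fold change of 5D against vehicle for the receptor chains, the listed pathway genes and other cytokine receptors of mean normalized CPM at least 1, 1 point per gene, filled where the unadjusted p was under 0.05. The filled points all lie under 0, from Cish at -0.092 to Il9 at -1.64. Il15, which was higher, and Il21 and Osmr, which were lower, also had such a p but fell under that level and are not drawn.

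Cytokine receptor chains outside the family served as a comparison, with 15 of 20 listed genes of the hematopoietin and interferon families tested. At an unadjusted p under 0.05, 2 were lower (13.3%) and 0 higher, against 3.84% and 3.5% of all genes. After adjustment by edgeR 0 passed. The median log2 fold change was -0.040. Il10ra, the IL-10 binding chain, had 99.1 ± 2.86 normalized CPM in vehicle libraries and 85.4 ± 0.631 under 5D (SD, n = 2 each), a log2 fold change of -0.21 (SE 0.067, edgeR adjusted p 0.530). Osmr, the receptor chain for oncostatin M, had 8 and 3 counts with vehicle and 0 with 5D. The list and the 8 members were not tested against each other.

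The 5 genes whose libraries followed Il2ra most closely were Sap30, Zfp266, Ttc39c, Clp1 and Ninj1. Likeness was the root mean square difference of centred log2 normalized CPM over the 4 libraries, which was 0.010 to 0.019 for these genes among 8737 compared. Their log2 fold changes ran from -0.25 for Ttc39c to -0.20 for Clp1, with adjusted p of 0.478 to 0.768 from edgeR. Fold changes close to that of Il2ra follow from the way these genes were chosen.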

How the data were processed

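The authors demultiplexed reads with CASAVA 1.8.2 (per the labels), aligned them with STAR 2.6.1 to mm10 with the GENCODE M21 annotation and quantified them in Partek Genomics Suite. The deposited table holds estimated counts per gene before normalization, with many values not whole, and these were rounded. Upper-quartile factors set the library sizes, and a filter (normalized counts averaging 1 or more and summing to 10 or more) left out 4904 genes. The study's Gene Set Analysis of Partek was not run, edgeR taking its place. All genes were fitted in R 4.3.3 with edgeR 4.0.16 (quasi-likelihood test, two-sided, Benjamini-Hochberg over the genes tested), with standard errors from the log2 fold change and F. DESeq2 1.42.0, limma-voom (limma 3.58.1), other scalings and filters, a replicate block, thinning and leaving out each library were alternatives. The code was tested on simulated data. Lengths and positions come from GENCODE M21, near-identical stretches (at least 150 nt at 95%) from BLAST 2.17.0. Members and lists were chosen with earlier results of these data known. Named genes are the members, their partner chains and listed genes at an unadjusted p under 0.05, with the 5 genes nearest to the member of smallest p. Others (kinases, STATs, Il4, Il13, Il2, Il7, Socs1, Socs2, Bcl2, Myc) were added after their values were seen, as was the NF-kB motif.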

Additional observations from a re-analysis of the deposited data

How the results depend on the processing

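Over 12 alternatives Il2ra, Il2rb and Il4ra kept a negative log2 fold change, and among them only Il2ra was called after adjustment in some. The count of members lower at an adjusted p under 0.05 was 1 with DESeq2, with limma-voom, without a filter and with the replicate block, and 0 to 1 when a library was left out. In those fits a group is left with 1 library, which is assumed to vary like the other group. The median of the members was -0.014 with thinned libraries and -0.0758 to -0.0017 without a library. Genes near 0 changed sign: Il2rg was -0.0021 and Il9r -0.014 with thinned libraries, and Crlf2 was 0.0064 with TMM and 0.0024 with limma-voom. Leaving out a library gave -0.023 to 0.022 for Il2rg, -0.0758 to 0.083 for Il7r, -0.057 to 0.059 for Il9r, -0.23 to 0.12 for Il15ra and -0.078 to 0.067 for Crlf2. The other pathway genes higher at an unadjusted p under 0.05 were 2 with TMM, no filter or thinning, 0 with DESeq2, limma-voom or filterByExpr and 0 to 2 without a library, and those lower were 4 to 6 without a library. Over all genes 12 were lower and 5 higher at an adjusted p under 0.05. These counts were 43 and 17 with DESeq2, 23 and 9 with limma-voom, 35 and 11 with no filter, 32 and 9 with the replicate block and 4 and 2 with thinning, 19 were lower with filterByExpr, and without a library 12 to 107 were lower and 3 to 73 higher, the most without vehicle replicate 1. Per coding length Il7r, Il9r and Il4ra ranked 4, 5 and 6 with vehicle and with 5D. The cause of these shifts was not tested.

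The labels do not say what a replicate number stands for. The difference of replicate 1 and 2 correlated between the groups at 0.0147 over all genes tested and at 0.0611 over genes of at least 10 normalized CPM, and with 2 numbers this does not show whether the libraries are paired. With the replicate block the adjusted p of Il2ra was 0.0147, and it changed no other call of a member. Counts limit what can be said of Il21r and Il13ra1.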
